A study of Mus musculus with 24 samples.

Results

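SR proteins, hnRNPs and the CLK kinases are widely expressed regulators of pre-mRNA splicing, and their mRNAs were followed here in mouse liver over the circadian day. The genes were taken by name (*Srsf* with a number, *Hnrnp*, *Clk1* to *Clk4*, *Tra2a* and *Tra2b*), leaving out names with "-ps", when their mean over all 24 libraries was at least 1 FPKM. This gave 36 of the 54733 genes in the tables: 4 CLK kinases, 8 classical SR proteins, 4 SR-like proteins and 20 hnRNPs. Of the 39 names that matched, 2 with "-ps" and *Srsf12* were left out, and *Srsf12* had a mean of 0.0181 FPKM. The member nearest to the limit was *Clk2* with 6.44 FPKM, and the highest was *Hnrnpa2b1* with 198 FPKM. The level chose the members, so it is given as a description.

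The livers came from male C57BL/6 mice, either wild type (WT) or ΔRRE, with 2 libraries of each genotype at CT2, CT6, CT10, CT14, CT18 and CT22. ΔRRE mice are homozygous for a CRISPR-Cas9 deletion of both RREs, the elements through which REV-ERB and ROR receptors set the daily rhythm of *Bmal1* (*Arntl*) transcription, and the deletion is carried by every cell of the animal. Unless stated otherwise the study used 1 mutant line. CT is circadian time in constant darkness, which the study gives as projected CT. Equal CT labels need not mean an equal internal phase in WT and ΔRRE. The study's methods on RNA from tissues give male mice aged 8 to 24 weeks, with no age for each library. Nothing in the labels says whether the 2 libraries of a group came from different animals, so p-values measure the spread between libraries. The comparison asks whether the time course and level of these regulators differ between mice with and without a rhythmic *Bmal1* mRNA. Mean *Bmal1* was 5.67 FPKM over the WT libraries and 3.06 FPKM over the ΔRRE libraries. The study also does not exclude effects of the deletion after transcription. These cannot be told apart here from the loss of the rhythm. FPKM are fragment numbers corrected for transcript length and library size, so levels can be compared between genes.

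SR proteins bind exons through RNA-recognition motifs and recruit the spliceosome through a domain rich in arginine and serine. CLK kinases in the nucleus and SRPK kinases in the cytoplasm phosphorylate that domain, and hnRNPs often act in the opposite sense by binding exonic or intronic silencers. Many of these proteins limit their own amount by splicing their pre-mRNA into a form that nonsense-mediated decay removes. CLK1 and CLK4 are known for kinase activity that follows small changes in body temperature, and body temperature in mice changes daily.

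Promoter stretches of 4 members found rhythmic below, all outside the annotated gene, are shown first because clock factors act through short motifs near the start site. Each is the 100 bases upstream of a RefSeq transcript start (GRCm38.p6, 5′ to 3′ on the gene's strand), with a motif match in capitals.
*Srsf5* (chr12:80945399-80945498, + strand): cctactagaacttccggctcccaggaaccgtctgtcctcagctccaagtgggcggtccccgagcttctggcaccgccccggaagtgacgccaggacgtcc
*Hnrnpr* (chr4:136310842-136310941, + strand): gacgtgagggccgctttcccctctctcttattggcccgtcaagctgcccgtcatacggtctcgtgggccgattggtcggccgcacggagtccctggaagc
*Tra2a* (chr6:49264053-49264152, - strand): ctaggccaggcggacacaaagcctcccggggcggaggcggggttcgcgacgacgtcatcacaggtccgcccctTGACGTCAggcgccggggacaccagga
*Hnrnpd* (chr5:99978939-99979038, - strand): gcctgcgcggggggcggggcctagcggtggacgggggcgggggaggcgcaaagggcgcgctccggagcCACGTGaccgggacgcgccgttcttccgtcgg
The capitals mark a cAMP-response element in *Tra2a* and an E-box, the element bound by CLOCK and BMAL1, in *Hnrnpd*. The stretches of *Srsf5* and *Hnrnpr* held no match. RefSeq windows of 300 bases (250 before to 50 after the start) were found for 33 of the 36 members and searched on both strands, and a gene was counted when any of its windows held a match. The E-box CACGTG was found in 6 members (18.2%) and in 12.2% of the 8226 tested genes with a window. They were *Clk2*, *Hnrnpa3*, *Hnrnpd*, *Hnrnpf*, *Hnrnph2* and *Hnrnpm*, of which *Hnrnpd* alone passed the joint test of rhythm below. The D-box TTANNTAA was found in 4 members (12.1%) and in 4.8% of tested genes, and the RRE in 0 members and in 0.62%. The heat shock element was found in *Hnrnpa2b1* and *Tra2b* (6.06%, against 0.584%), and the cAMP-response element TGACGTCA in *Clk4* and *Tra2a* (6.06%, against 3.66%). Matches of different motifs did not overlap in any member. These shares describe letters in a window and were not tested.

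FPKM are divided by library size, so their sums (554170 to 624746 per library) do not show depth, and the number of fragments behind each value is unknown. *Bmal1* checked the labels: in WT it ran from 0.0919 FPKM at CT10 to 13.2 FPKM at CT2, and in ΔRRE it stayed between 2.096 and 4.21 FPKM. Hepatocyte markers (*Alb*, *Apoa1*, *Ttr*, *Cps1*, *Tat*) summed to 28488 to 47043 FPKM per library. All 5 Kupffer, 4 endothelial, 4 stellate, 3 lymphocyte, 3 cholangiocyte and 2 erythroid markers were measured and none was at 0 in all libraries of a genotype. Summed over each list they ranged from 12.1 to 61.9, from 16.8 to 35.4, from 26.8 to 71.3, from 0.361 to 2.36, from 2.13 to 8.51 and from 272.5 to 2765 FPKM, so other liver cells and blood contributed RNA. The erythroid sum was highest in ΔRRE CT14 replicate 1 (2765 FPKM) and ΔRRE CT10 replicate 1 (2712 FPKM), and the next was 1206 FPKM. WT CT18 replicate 1 had the highest share of FPKM from mitochondrial genes, 17.9%, beside 16.3% in the next WT library, a WT median of 14.1% and 11.5% to 15.7% in ΔRRE libraries. Its median deviation from each gene's mean was -0.17 (log2) over the members and -0.14 over all 11244 tested genes, so results are also given without it.

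Of the 36 members, 9 (25%) had a 24-h rhythm in the joint test of both genotypes, against 18.7% of all 11244 genes tested. They were the SR protein gene *Srsf5*, the SR-like *Tra2a*, the kinase gene *Clk3* and the hnRNP genes *Hnrnpc*, *Hnrnpr*, *Hnrnpdl*, *Hnrnpul1*, *Hnrnpd* and *Hnrnph1*. The rhythms were small: fitted peaks were between 1.23- and 1.78-fold above troughs. Of the fitted peaks, 1 was between CT0 and CT4, 2 from CT4 to CT8, 2 from CT8 to CT12, 0 from CT12 to CT16, 2 from CT16 to CT20 and 2 from CT20 to CT24. Of all genes called, 22.1%, 22.8%, 15.6%, 13.2%, 11.2% and 15.2% peaked in these windows. From CT4 to CT12 there were 4 members called of the 36, against 7.19% of all genes tested. The test was limma's F-test of a 24-h cosine and sine in each genotype on log2(FPKM + 0.1). Its p-values were adjusted over all genes tested by the Benjamini-Hochberg method, with a threshold of 0.05. A rhythm in 1 genotype can be enough to pass it, so a call does not show a rhythm in both. *Bmal1* passed (adjusted p = 4.70e-06) with amplitudes of 2.57 in WT and 0.29 in ΔRRE (log2). The 24-h amplitudes and peaks given are those of 1 wave shared by both genotypes, unless a genotype is named. In whole liver, fewer cells of a type and less RNA per cell cannot be told apart. Pairs of times whose libraries are compared below were those of the highest and lowest mean in these same data. A lack of overlap there describes the values and does not support a call. Members that did not pass could show it too, such as *Hnrnpu* (29.9 to 51.3 FPKM at CT22 and 22.6 to 27.3 FPKM at CT10). Without WT CT18 replicate 1 the count was 8, and *Clk3* was lost (adjusted p = 0.0994). The count was also 9 without ΔRRE CT10 replicate 1, and 7 without ΔRRE CT14 replicate 1, when *Clk3* and *Hnrnph1* were lost (adjusted p = 0.0647 and 0.0788). When the wave was replaced by time points as a factor, only *Srsf5* and *Hnrnpr* passed, and limma's adjusted p of the others were 0.0532 for *Hnrnpc*, 0.0833 for *Tra2a*, 0.126 for *Hnrnpdl*, 0.179 for *Hnrnph1*, 0.249 for *Hnrnpul1*, 0.266 for *Hnrnpd* and 0.32 for *Clk3*.

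**Figure D1:**
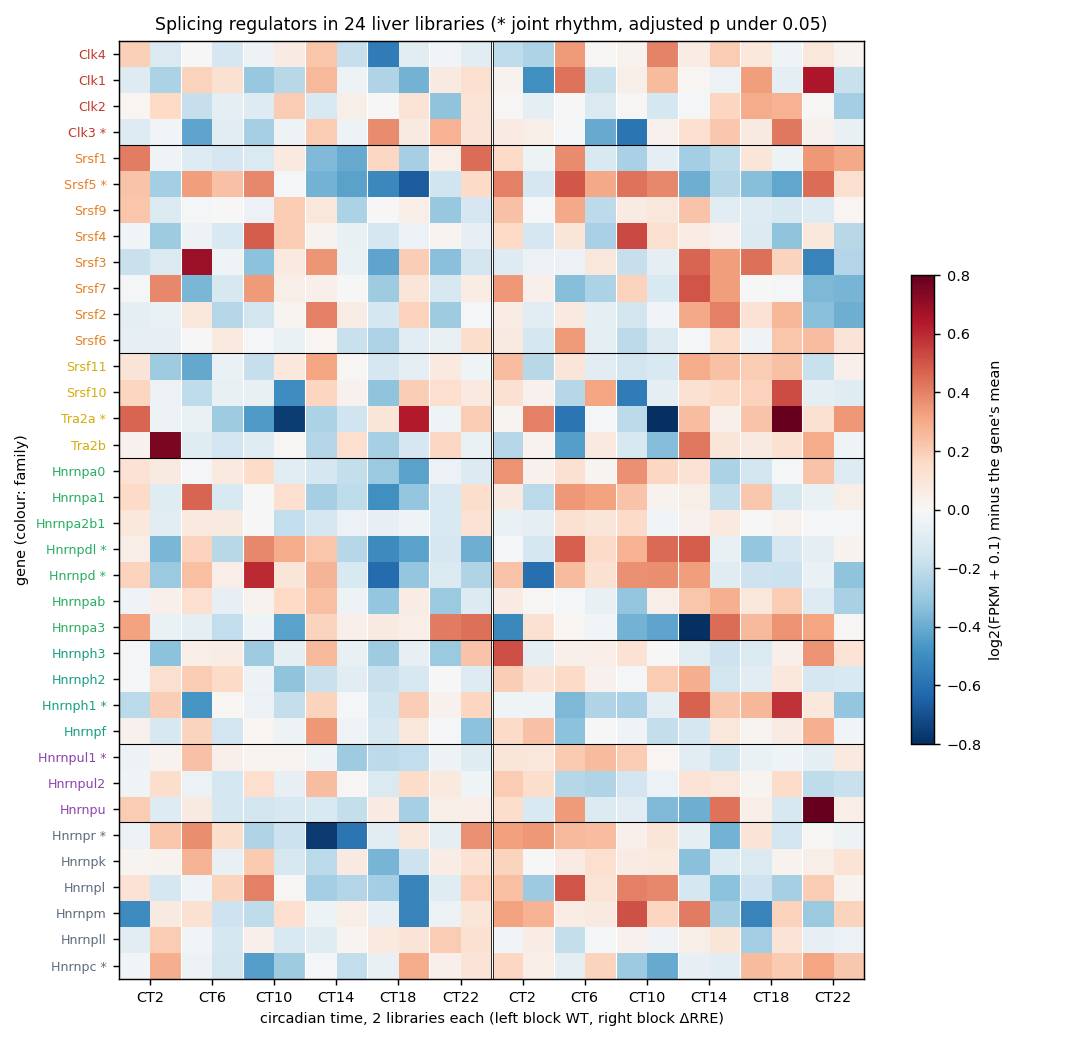
Heat map of log2(FPKM + 0.1) minus the gene's own mean for the 36 members (rows, grouped by family) in 24 libraries (columns, WT left and ΔRRE right, ordered by circadian time). An asterisk marks the 9 members with a joint rhythm, and *Srsf5* is low at CT14 and CT18 in both blocks.

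Among the kinases, *Clk3* was the rhythmic gene. In WT, *Clk3* gave 9.59 and 10.2 FPKM at CT2, 7.67 and 9.71 at CT6, 8.55 and 10.02 at CT10, 11.9 and 10.04 at CT14, 13.4 and 10.9 at CT18, and 12.5 and 11.1 at CT22. In ΔRRE, *Clk3* gave 10.8 and 10.7 FPKM at CT2, 10.2 and 7.77 at CT6, 6.86 and 10.6 at CT10, 11.3 and 12.01 at CT14, 10.8 and 13.8 at CT18, and 10.5 and 9.88 at CT22. All 4 libraries at CT18 (10.8 to 13.8 FPKM) were above all 4 at CT6 (7.67 to 10.2 FPKM), and the fitted peak was at CT18.8 with an amplitude of 0.23 ± 0.05 (log2, SE) and an adjusted p of 0.0493. This call was the weakest of the 9: when single libraries were dropped it held 6 times out of 24, with adjusted p from 0.0357 to 0.106. It was also lost without a filter on low values (adjusted p = 0.0948), with the replicate block (0.0536) and without a trend in the prior (0.058). *Clk3* overlaps *Edc3* on the other strand. The study's methods name a directional library kit, but whether the authors' counting used strand was not given in the sources used here.

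The other CLK genes did not pass the test, and their libraries overlapped between the times of their highest and lowest mean. Both ΔRRE libraries of *Clk2* at CT18 (7.88 and 7.80 FPKM) lay above all its other libraries. *Clk1* ranged from 17.98 to 27.97 FPKM, with a median of 22.2 FPKM in WT and from 16.6 to 36.7 FPKM, with a median of 23.7 FPKM in ΔRRE. For *Clk1*, the wave shared by both genotypes had an amplitude of 0.01 ± 0.08 (log2), the lowest of the 36 members. Fitted by genotype, the amplitude was 0.05 ± 0.09 in WT (peak CT4.28) and 0.06 ± 0.12 in ΔRRE (peak CT15.6). The joint test gave an adjusted p of 0.981. At CT22 the ΔRRE libraries of *Clk1* differed more from each other (36.7 and 20.7 FPKM) than any WT pair did. *Clk4*, the closest paralogue of *Clk1*, ranged from 16.05 to 27.7 FPKM, with a median of 22.7 FPKM in WT and from 19.99 to 31.2 FPKM, with a median of 24.4 FPKM in ΔRRE, with an amplitude of 0.10 ± 0.05 (adjusted p = 0.462). *Clk2* was the lowest of the 4 kinases, from 5.101 to 7.39 FPKM, with a median of 6.43 FPKM in WT and from 5.28 to 7.88 FPKM, with a median of 6.43 FPKM in ΔRRE (amplitude 0.08 ± 0.05, adjusted p = 0.636). *Clk4* overlaps *Gm25082* on the same strand and *BC049762* on the other strand. One wave shared by both genotypes gave the 4 kinase genes amplitudes from 0.01 to 0.23 (log2).

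Of the 8 classical SR proteins only *Srsf5* passed. In WT, *Srsf5* gave 109 and 76.8 FPKM at CT2, 117 and 109 at CT6, 121 and 92.3 at CT10, 71.5 and 68.9 at CT14, 64.97 and 58.5 at CT18, and 83.2 and 103 at CT22. In ΔRRE, *Srsf5* gave 123 and 84.7 FPKM at CT2, 131 and 115 at CT6, 125 and 121 at CT10, 70.8 and 79.2 at CT14, 73.2 and 69.7 at CT18, and 127 and 102 at CT22. The CT6 libraries (109 to 131 FPKM) and the CT18 libraries (58.5 to 73.2 FPKM) did not overlap, and their means differed 1.77-fold. The fitted peak was at CT5.24, with an amplitude of 0.38 ± 0.07 (log2) and an adjusted p of 0.0088, and the call held in all 24 fits with 1 library dropped (adjusted p from 0.00206 to 0.0217). Srsf5, also known as SRp40, binds exonic enhancers. *Srsf5* was also the only member that passed limma's test in the fit to the WT libraries only (adjusted p = 0.0358, against 10.3% of all genes). In the fit to the ΔRRE libraries its amplitude was 0.37, beside 0.39 in WT (log2), and limma's adjusted p was 0.107. The WT call was lost without WT CT18 replicate 1 (adjusted p = 0.0846) and held 3 times out of 12 when single WT libraries were dropped. It was also lost without a filter on low values, after rescaling of the libraries and without a trend in the prior. With time point as a factor it was lost as well, and limma's adjusted p in these alternatives reached at most 0.126.

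A 12-h wave on top of the 24-h one was found for *Srsf5* alone among the 36 members (adjusted p = 0.0388), against 3.05% of all genes. The time-point means of *Srsf5* were low at CT14 and CT18 and higher at the other times, including CT22. The fitted 12-h amplitude was 0.23 (log2), with peaks at CT9.61 and CT21.6. It held in 10 of 24 fits with 1 library dropped, with adjusted p from 0.0202 to 0.0984. At an unadjusted p under 0.05, 11 members passed the 12-h test, against 19.1% of all genes.

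*Srsf1*, the founding SR protein and a splicing enhancer in most tissues, fell just outside the threshold (adjusted p = 0.0604). Its 4 libraries at CT22 (10.6 to 13.9 FPKM) lay above its 4 at CT14 (7.66 to 8.82 FPKM), with a fitted peak at CT0.214 and an amplitude of 0.23 ± 0.06 (log2). The other classical SR genes had amplitudes from 0.05 to 0.17 (log2) and did not pass.

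Of the 4 SR-like genes, *Tra2a* passed and had the largest fitted amplitude of the 36. In WT, *Tra2a* gave 10.5 and 7.36 FPKM at CT2, 7.29 and 6.21 at CT6, 5.51 and 4.43 at CT10, 6.35 and 6.79 at CT14, 8.12 and 11.8 at CT18, and 7.39 and 8.72 at CT22. In ΔRRE, *Tra2a* gave 7.69 and 10.1 FPKM at CT2, 5.03 and 7.55 at CT6, 6.53 and 4.27 at CT10, 9.01 and 7.795 at CT14, 8.89 and 13.8 at CT18, and 8.26 and 9.68 at CT22. All CT10 libraries (4.27 to 6.53 FPKM) were below all CT18 libraries (8.12 to 13.8 FPKM), a 2.05-fold difference of means. The fitted peak was at CT20.8 with an amplitude of 0.41 ± 0.08 (log2) and an adjusted p of 0.0116. Tra2a and Tra2b are homologues of the fly sex-determination factor Transformer-2 and bind GAA-rich exonic enhancers. *Tra2b* ranged from 8.91 to 18.2 FPKM, with a median of 10.2 FPKM in WT and from 7.89 to 14.4 FPKM, with a median of 11.1 FPKM in ΔRRE, with overlapping times and an adjusted p of 0.255. *Tra2a* overlaps *Gm43980* on the other strand.

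6 of the 20 hnRNP genes passed, and the lowest adjusted p of all members was that of *Hnrnpc* (0.00594). In WT, *Hnrnpc* gave 28.4 and 35.4 FPKM at CT2, 27.99 and 26.02 at CT6, 21.3 and 23.7 at CT10, 28.7 and 25.2 at CT14, 27.8 and 35.5 at CT18, and 29.7 and 31.04 at CT22. In ΔRRE, *Hnrnpc* gave 32.5 and 29.97 FPKM at CT2, 27.4 and 32.6 at CT6, 23.6 and 21.8 at CT10, 27.6 and 27.2 at CT14, 34.4 and 33.4 at CT18, and 35.9 and 33.5 at CT22. The libraries at CT10 were the lowest in both genotypes (21.3 to 23.7 FPKM), below every other library of the gene. The fitted peak was at CT22.1, with an amplitude of 0.24 ± 0.04 (log2). Hnrnpc packages nascent pre-mRNA and binds runs of uridine, where it competes with U2AF. The call held in all 24 fits with 1 library dropped.

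*Hnrnpr*, an RNA-binding protein close to Syncrip that carries mRNAs in neurons, had its low at CT14. In WT, *Hnrnpr* showed 8.93 and 10.8 FPKM at CT2, 11.97 and 10.2 at CT6, 7.77 and 8.17 at CT10, 5.38 and 6.11 at CT14, 8.68 and 9.77 at CT18, and 8.77 and 11.9 at CT22. In ΔRRE, *Hnrnpr* showed 11.6 and 11.8 FPKM at CT2, 11.04 and 10.98 at CT6, 9.49 and 9.89 at CT10, 8.72 and 7.07 at CT14, 9.91 and 8.28 at CT18, and 9.300 and 8.95 at CT22. The CT14 libraries (5.38 to 8.72 FPKM) lay below the CT6 libraries (10.2 to 11.97 FPKM). The WT values at CT14 (5.38 and 6.11 FPKM) were also below both ΔRRE values (8.72 and 7.07 FPKM). The fitted peak was at CT2.51 with an amplitude of 0.29 ± 0.06 (log2, adjusted p = 0.00958), and it did not pass limma's test of a difference in rhythm between genotypes, with or without adjustment. *Hnrnpr* overlaps *Gm27022* on the other strand.

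The paralogues *Hnrnpd* and *Hnrnpdl* lie near each other on chromosome 5 (chr5:99955935-99978938, - strand, ENSMUSG00000000568, and chr5:100033577-100039664, - strand, ENSMUSG00000029328, GENCODE M21 on GRCm38) and had nearly the same fitted peak. Hnrnpd, also called AUF1, binds AU-rich elements and speeds mRNA decay, and Hnrnpdl is its nearest relative. In WT, *Hnrnpdl* measured 24.4 and 18.2 FPKM at CT2, 26.7 and 20.1 at CT6, 30.7 and 28.9 at CT10, 27.4 and 20.1 at CT14, 16.5 and 17.4 at CT18, and 21.4 and 17.9 at CT22. In ΔRRE, *Hnrnpdl* measured 23.2 and 21.4 FPKM at CT2, 32.8 and 26.1 at CT6, 28.6 and 32.2 at CT10, 32.99 and 22.6 at CT14, 18.98 and 21.4 at CT18, and 22.3 and 23.97 at CT22. All 4 CT10 libraries (28.6 to 32.2 FPKM) exceeded all 4 CT18 libraries (16.5 to 21.4 FPKM). *Hnrnpdl* peaked at CT8.99 with an amplitude of 0.30 ± 0.06 (log2) and an adjusted p of 0.0174.

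In WT, *Hnrnpd* measured 19.8 and 14.2 FPKM at CT2, 20.5 and 18.1 at CT6, 26.4 and 18.6 at CT10, 21.1 and 16.01 at CT14, 11.3 and 14.00 at CT18, and 16.1 and 14.7 at CT22. In ΔRRE, *Hnrnpd* measured 20.4 and 11.4 FPKM at CT2, 20.8 and 18.96 at CT6, 22.4 and 22.5 at CT10, 21.98 and 16.2 at CT14, 15.5 and 15.4 at CT18, and 16.8 and 13.9 at CT22. CT10 (18.6 to 26.4 FPKM) again lay above CT18 (11.3 to 15.5 FPKM) without overlap. *Hnrnpd* peaked at CT9.04 with an amplitude of 0.31 ± 0.07 (log2) and an adjusted p of 0.0258, and held in 23 of 24 fits with 1 library dropped, the exception being without WT CT10 replicate 1 (adjusted p = 0.0542). The call was also lost without a filter on low values (adjusted p = 0.0583). *Hnrnpd* overlaps *Gm17092* on the other strand. Of the remaining A/B/D-type genes, *Hnrnpa0*, *Hnrnpa1*, *Hnrnpa2b1*, *Hnrnpa3* and *Hnrnpab*, 0 passed. *Hnrnpa1* and *Hnrnpa3* have many processed pseudogenes, so reads may be shared and their values are uncertain.

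*Hnrnpul1*, a relative of the nuclear scaffold protein Hnrnpu that also takes part in DNA repair, had the smallest amplitude of the 9. In WT, *Hnrnpul1* read 17.9 and 18.8 FPKM at CT2, 21.7 and 18.99 at CT6, 18.7 and 18.7 at CT10, 18.00 and 15.1 at CT14, 15.96 and 16.1 at CT18, and 17.95 and 17.3 at CT22. In ΔRRE, *Hnrnpul1* read 19.7 and 19.6 FPKM at CT2, 21.4 and 21.98 at CT6, 21.2 and 18.6 at CT10, 17.4 and 16.5 at CT14, 17.8 and 17.98 at CT18, and 17.5 and 19.5 at CT22. CT6 (19.0 to 22.0 FPKM) did not overlap CT14 (15.1 to 18.0 FPKM). The peak was at CT5.37 and the amplitude 0.15 ± 0.03 (log2, adjusted p = 0.0206). The call was lost after rescaling of the libraries (adjusted p = 0.0689). *Hnrnpu* ranged from 24.2 to 33.5 FPKM, with a median of 26.8 FPKM in WT and from 22.1 to 51.3 FPKM, with a median of 28.7 FPKM in ΔRRE, where 1 library at CT22 held the highest value. Its adjusted p was 0.487, and it overlaps *Cox20* on the other strand.

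*Hnrnph1* encodes a protein that binds runs of guanosine. In WT, *Hnrnph1* stood at 31.9 and 42.4 FPKM at CT2, 26.6 and 37.4 at CT6, 35.7 and 32.4 at CT10, 41.9 and 36.7 at CT14, 33.2 and 42.4 at CT18, and 37.8 and 41.7 at CT22. In ΔRRE, *Hnrnph1* stood at 36.2 and 36.1 FPKM at CT2, 28.9 and 31.3 at CT6, 30.8 and 35.2 at CT10, 51.3 and 42.96 at CT14, 44.5 and 55.2 at CT18, and 39.3 and 29.8 at CT22. CT18 (33.2 to 55.2 FPKM) and CT6 (26.6 to 37.4 FPKM) overlapped. The fitted amplitude was 0.14 ± 0.08 in WT and 0.33 ± 0.08 in ΔRRE (log2, SE), and limma's test of the difference in rhythm was not passed, with or without adjustment. The joint peak was at CT17.5 (adjusted p = 0.0394), a call that held in 12 of 24 fits with 1 library dropped. It was lost without ΔRRE CT18 replicate 2 (adjusted p = 0.12). It was also lost without a filter on low values (0.082) and without a trend in the prior (0.0528). *Hnrnph2*, its near relative on the X chromosome, ranged from 15.4 to 22.3 FPKM, with a median of 18.5 FPKM in WT and from 17.5 to 23.7 FPKM, with a median of 20.2 FPKM in ΔRRE (adjusted p = 0.229).

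**Figure D2:**
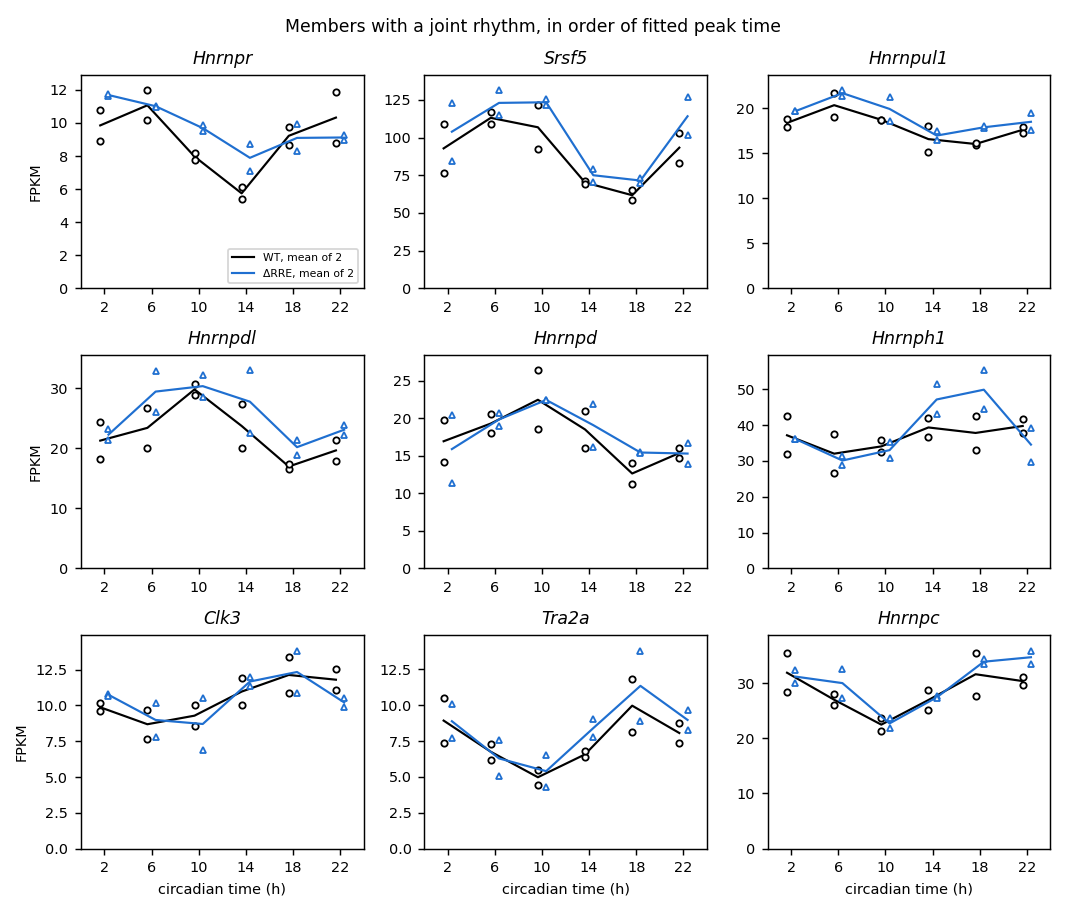
FPKM of the 9 rhythmic members against circadian time, in order of fitted peak, with points for single libraries (circles WT, triangles ΔRRE) and lines through the mean of 2. The lowest mean of each gene falls at the same or a neighbouring time point in WT and ΔRRE.

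Across the 36 members the amplitude of the wave shared by both genotypes ran from 0.01 to 0.41 (log2). Its median was 0.15, beside 0.17 over all genes tested. Among the called members, *Hnrnpr*, *Srsf5*, *Hnrnpul1*, *Hnrnpdl* and *Hnrnpd* peaked between CT2.51 and CT9.04, and *Hnrnph1*, *Clk3*, *Tra2a* and *Hnrnpc* between CT17.5 and CT22.1. The SEs of the 9 peak times were 0.649 to 1.01 h, so *Hnrnpdl* and *Hnrnpd* could not be ordered, nor *Srsf5* and *Hnrnpul1*.

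**Figure D3:**
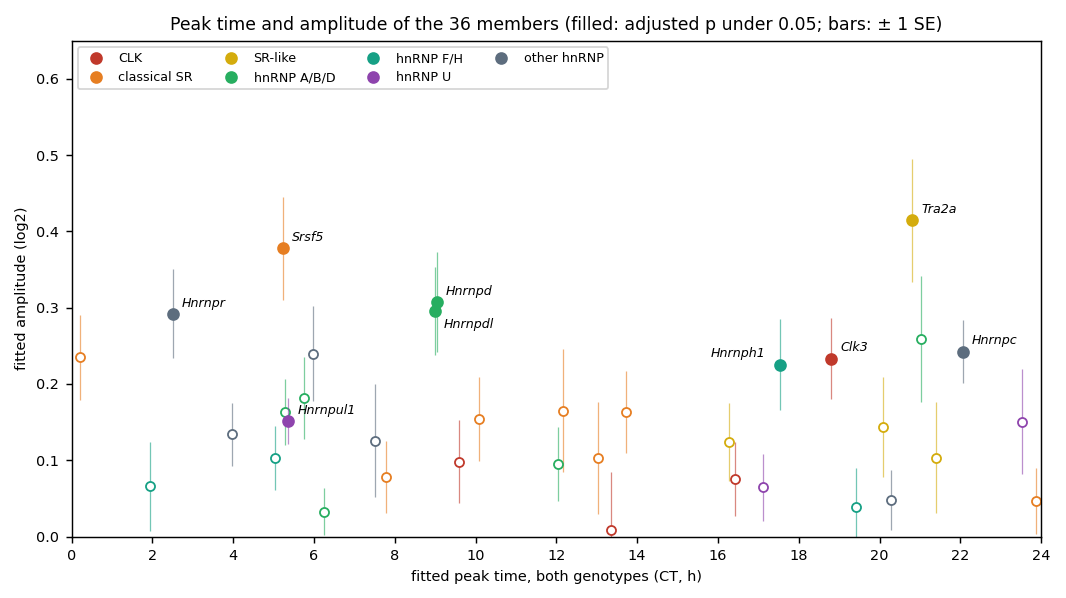
Fitted amplitude (log2, ± 1 SE) against fitted peak time (h) for the 36 members, from 1 wave shared by both genotypes. Filled points are the 9 members with an adjusted p under 0.05, with peaks between CT2.51 and CT22.1.

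A difference in these rhythms between WT and ΔRRE was not detectable. No member passed the test of a difference in rhythm after adjustment, and 0.00889% of all genes, *Bmal1* alone, did. At an unadjusted p under 0.05 there was 1 member, *Hnrnpf*, against 2.84% of all genes. *Hnrnpf* is named because it was that 1 gene, after its values were seen, and it was not rhythmic in the joint test (adjusted p = 0.298). A p that misses the threshold does not show that rhythms were alike, and the fitted peaks of the 9 called members differed between genotypes by -2.13 h (*Hnrnph1*, earlier in ΔRRE) to 1.99 h (*Hnrnpr*, later in ΔRRE), with a median of -0.169 h. The amplitude was lower in ΔRRE in 6 of the 9 and higher in 3.

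By the criteria of the study's methods, applied to a harmonic p, 10 members were rhythmic in WT, against 37% of all genes, and 10 in ΔRRE, against 35.4%. These criteria ask for p under 0.3, a ratio above 1.5 between the extreme time-point means, and a limit on the SD. The same 5 members met them in both genotypes, against 22.9% of all genes: *Srsf5*, *Tra2a*, *Hnrnpdl*, *Hnrnpa3* and *Hnrnpl*, the last a binder of CA repeats. Of these, *Hnrnpa3* and *Hnrnpl* are named after their values were seen. In the fit to the ΔRRE libraries only, 0 members passed an adjusted p under 0.05 in limma, against 4.57% of all genes. At an unadjusted p under 0.05, 9 passed, against 22.6%.

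A difference in mean level over the 6 time points was not detectable. No member passed limma's test of ΔRRE minus WT after adjustment, and 0% of all genes did. At an unadjusted p under 0.05 there were 4 members, all higher in ΔRRE, against 7.16% of all genes higher and 1.75% lower. They were *Hnrnpa0*, which binds AU-rich elements of stress-response mRNAs, *Srsf5*, *Hnrnpdl* and *Hnrnpul1*. Before any test, 30 of the 36 differences were above 0, as were 65.5% of all genes, with a median of 0.06 over the members and 0.04 over all genes (log2). After rescaling of each library by its median ratio to the geometric mean of all libraries, 24 were above 0 (48.8% of all genes), with medians of 0.02 over the members and -0.0033 over all genes. At an unadjusted p under 0.05, the rescaled fit had 1 member higher, *Hnrnpdl*, against 3.73% of all genes, and 1 lower, *Hnrnpul2*, against 3.23%. *Hnrnpul2* is named after its values were seen.

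*Hnrnpa0* averaged 24.4 ± 2.83 FPKM over the WT libraries and 27.1 ± 3.59 FPKM over the ΔRRE libraries (SD over time points and replicates, n = 12 each). The difference was 0.15 ± 0.06 (log2, SE), with a 95% interval of 0.03 to 0.27. *Srsf5* averaged 89.7 ± 21.8 FPKM over the WT libraries and 102 ± 24.6 FPKM over the ΔRRE libraries (SD over time points and replicates, n = 12 each). Its difference was 0.18 ± 0.07 with an interval of 0.03 to 0.33. *Hnrnpdl* averaged 22.5 ± 4.94 FPKM over the WT libraries and 25.5 ± 4.92 FPKM over the ΔRRE libraries (SD over time points and replicates, n = 12 each), a difference of 0.19 ± 0.08 with an interval of 0.03 to 0.35. The genotypes overlapped widely in all of them. They were named for the lowest p in this test, and limma's adjusted p were 0.464, 0.464 and 0.475. Without WT CT18 replicate 1 the differences were 0.15, 0.19 and 0.18.

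The CLK kinases had differences from -0.01 (*Clk3*, 95% interval -0.17 to 0.15) to 0.13 (*Clk1*, -0.08 to 0.34), with 0.03 for *Clk2* (-0.11 to 0.16) and 0.13 for *Clk4* (-0.03 to 0.29). The intervals of all 4 included 0.

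**Figure D4:**
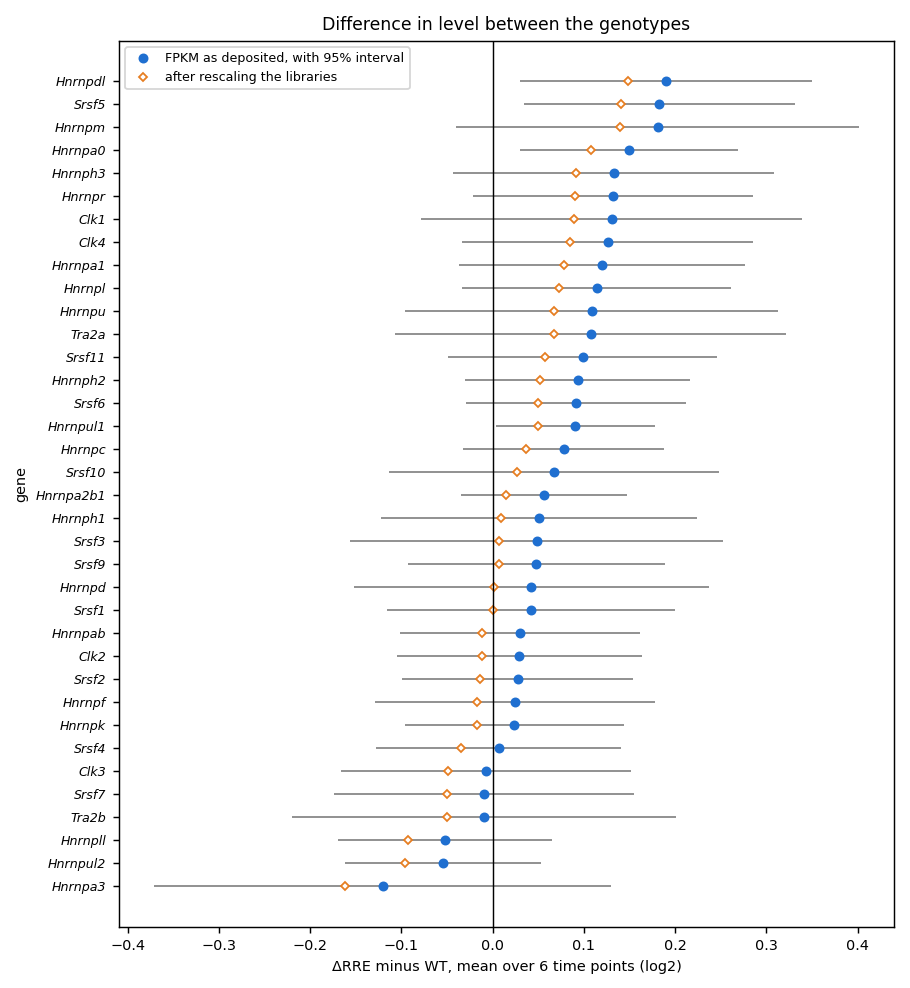
Difference in level, ΔRRE minus WT, over 6 time points (log2) for the 36 members, as deposited with its 95% interval (blue circles) and after rescaling of the libraries (orange diamonds). The circles run from -0.12 to 0.19, 30 of them above 0, and every diamond lies to the left of its circle.

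Other splicing genes were taken from 5 further lists, and 14 of their 77 tested genes (18.2%) had a joint rhythm. Among the other kinases of SR proteins 1 of 4 passed, the cytoplasmic kinase gene *Srpk1* (peak CT18.2, amplitude 0.27 ± 0.05, adjusted p = 0.0107), while *Prpf4b* (peak CT18.9, amplitude 0.23 ± 0.06, adjusted p = 0.0834) did not. SR-related proteins had 3 of 14, led by *Thrap3* (peak CT6.21, amplitude 0.27 ± 0.05, adjusted p = 0.00835) and *Rbm39* (peak CT3.54, amplitude 0.19 ± 0.04, adjusted p = 0.0121), both nuclear co-factors of splicing and transcription. Among hnRNP-type proteins under other names, *Cirbp* (peak CT6.004, amplitude 0.83 ± 0.11, adjusted p = 0.000387) passed. Core spliceosome genes had 3 of 28, led by *Prpf19* (peak CT5.03, amplitude 0.20 ± 0.04, adjusted p = 0.00503) and *Sf3b1* (peak CT9.83, amplitude 0.18 ± 0.04, adjusted p = 0.0117). The remaining splicing regulators had 5 of 23 tested, led by *Rbm3* (peak CT11.7, amplitude 0.48 ± 0.08, adjusted p = 0.00303) and *Ddx5* (peak CT15.9, amplitude 0.19 ± 0.03, adjusted p = 0.00761).

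Reference genes known to follow body temperature were also tested. Both cold-inducible genes, *Cirbp* and *Rbm3*, passed with the values above, and 10 of 11 heat shock genes passed with peaks between CT12 and CT24. The 2 with the lowest p were the small chaperone gene *Hspb1* (peak CT19.8, amplitude 1.15 ± 0.14, adjusted p = 0.000252) and the HSP70 co-chaperone gene *Dnajb1* (peak CT16.3, amplitude 0.79 ± 0.12, adjusted p = 0.00153). The fitted amplitudes of the 10 heat shock genes that passed ran from 0.23 (*Hspe1*) to 1.79 (*Hspa1b*), beside 0.41 (log2) as the highest value among the 36 members, and *Hspe1* and *Hsp90ab1* (0.36) lay below it. *Hspe1*, *Hsp90ab1* and *Hspa1b* are named after their values were seen.

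The gene-level FPKM do not separate transcript forms, and the annotation shows how many forms they pool. Members have a median of 9 annotated transcripts, beside 5 for the protein-coding genes tested. The shares that follow are not corrected for this. Of the 36 members, 25 (69.4%) have an annotated transcript subject to nonsense-mediated decay, beside 30.1% of 9979 protein-coding genes tested. These comprise 4 of 4 CLK genes, 11 of 12 SR and SR-like genes and 10 of 20 hnRNP genes. A retained-intron transcript is annotated for 28 members (77.8%), beside 61.1%. *Clk1* has 7 such transcripts among 13, *Clk4* 7 among 14 and *Srsf5* 3 among 12. A change in splicing that left the total of a gene's transcripts the same would not appear in these values. Rhythms of protein amount or of phosphorylation were not measured here.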

How the data were processed

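RNA-seq of poly(A)-tailed RNA from whole liver was analysed in 24 libraries, grouped by the genotype and time in their labels. The authors deposited gene-level FPKM in a separate table for every library, with replicates kept apart. The submitters' processing notes name Trimmomatic 0.39, HISAT2 2.1.0, StringTie 1.3.5 and mm10, without roles. The FPKM were not whole numbers and read counts were not recoverable, so no counting error is given and tests that need counts were not run.

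Models were fitted to log2(FPKM + 0.1) of the deposited values, for the 11244 genes whose mean reached 1 FPKM, by limma 3.58.1 (R 4.3.3) and its variance prior with a trend on mean level. A fold on this scale understates the change of low genes. The joint test used a mean, cosine and sine per genotype, the difference test asked whether these waves were equal, the level test used time point as a factor, and the 12-h test added a wave to the 24-h one. The study's criteria were applied to the harmonic p, since BIO_CYCLE was not run. The fits were tested on simulated data. Promoters were RefSeq windows and transcript types came from GENCODE M21, in which 54528 of the 54733 identifiers were found. Figures were drawn with matplotlib 3.10.9 in Python 3.11.15.

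The members, the family and pathway lists and the tests were chosen with earlier results of these data known. Values were given in full for the CLK genes, the 2 members of each family with the lowest joint p, members called in any test and the 3 with the lowest genotype p. Of each pathway list the 2 genes with the lowest joint p were named, except 1 gene that is not reported here. The alternatives changed the added constant, the filter, the scale of the libraries, the replicate term, the prior, the shape of the time course and the threshold, and left out each library in turn.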

Additional observations from a re-analysis of the deposited data

How the results depend on the processing

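The number of members with a joint rhythm was 9 in the fit reported, ranged from 7 to 10 over the 24 fits without 1 library, was 6 without a filter on low values, 7 without a trend in the prior, 8 after rescaling and 12 at an adjusted p under 0.1, and was 2 (*Srsf5* and *Hnrnpr*) with time point as a factor, which spends 10 rather than 4 degrees of freedom on time. In the fit to the WT libraries only, the number with a rhythm was 1 as reported, 0 without a filter on low values and with time point as a factor, 2 with the replicate block, 8 at an adjusted p under 0.1, and 0 to 1 without 1 library. In ΔRRE it was 0 as reported, 1 with 1 FPKM added, 1 with a mean of at least 5 FPKM, 1 after rescaling, 4 at an adjusted p under 0.1, and 0 to 1 without 1 library. The 12-h count was 1 as reported, 0 without a filter, 2 with a mean of at least 5 FPKM, 3 after rescaling, 3 with the replicate block, 4 at an adjusted p under 0.1, and 0 to 3 without 1 library. Without a trend in the prior the count in WT and the 12-h count were both 0. The tests of a difference in rhythm and of the level gave 0 members under every alternative run. The cause of these changes was not tested. The labels do not say that a replicate number pairs libraries: over 66 pairs of groups, deviations of same-numbered libraries correlated with r from -0.138 to 0.305 (median 0.0669). With the replicate block the joint count was 8, *Clk3* being the call lost. The number of fragments behind each value is unknown.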
